A study of Mus musculus with 12 samples.

Results

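The genes of 10 proteins of mitochondrial beta oxidation were followed in mouse hearts after a single dose of a compound that the labels call DMA, an abbreviation they do not expand. The genes were chosen by name, as Hadha, Hadhb, Hadh, Acadm, Acadl, Acadvl, Acaa2, Cpt2, Cpt1b and Decr1, and each was read from its brightest probe (the probe with the highest mean log2 value) among the probes that the platform annotation gives 1 gene symbol. Of these 10 genes, 9 had a probe, out of 18069 genes with a named probe on the array. Hadha was in no row of that annotation and has no values here. The animals were Balb/c mice that received one gavage of 30 mg/kg DMA, or DMSO as the vehicle, and hearts were taken 24 h or 48 h later. This gave 4 groups of 3 one-colour arrays, with a DMSO group and a DMA group for each time. The labels give the age of no group, call the arrays of a group biological replicates, and also describe pooled total RNA. Nothing says which hearts stand behind each array, so p-values here cover the spread between arrays alone, part of which may be technical.

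Beta oxidation is the pathway by which mitochondria shorten fatty acids into acetyl-CoA, and it supplies much of the energy of the adult heart. Long-chain fatty acids enter the mitochondrion through the carnitine shuttle, in which Cpt1b, the muscle form of carnitine palmitoyltransferase, acts at the outer membrane and Cpt2 acts at the inner membrane. Inside, acyl-CoA dehydrogenases for very long, long and medium chains (Acadvl, Acadl and Acadm) make the first double bond. The trifunctional protein (Hadha and Hadhb) carries the next steps for long chains, while Hadh and Acaa2 carry the dehydrogenase and thiolase steps for shorter ones, and Decr1 prepares unsaturated fatty acids for the cycle. Many of these genes are known targets of nuclear receptors such as PPAR alpha and the estrogen-related receptors, whose half-site is AGGTCA.

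Promoter windows of 300 bases, 250 before and 50 after the gene start, were taken from RefSeq on build GRCm38.p6 and held 7 of the 10 genes: Acadl, Acadm, Acadvl, Cpt2, Hadh, Hadha and Hadhb. The half-site AGGTCA was searched on both strands. It was present in 2 of the 7 windows (28.6%), against 16.3% of all 32851 windows. Both matches are shown because they are the sites where the letters of this receptor half-site occur among the members. Each sequence is 60 bases, read 5′ to 3′ on the minus strand, on which both genes lie, and the capitals mark the motif. In Acadm (chr3:153944834-153944893) the motif lay on the strand opposite to the gene, 249 bases before the start. In Acadvl (chr11:70015483-70015542) it lay on the gene's own strand, 87 bases before the start.
Acadm: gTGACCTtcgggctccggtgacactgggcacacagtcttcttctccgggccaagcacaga
Acadvl: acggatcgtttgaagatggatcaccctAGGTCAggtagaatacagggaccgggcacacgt
The windows of Hadha and Hadhb, which are neighbouring genes, shared 228 bases. These matches describe the letters only, and no binding was measured here.

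The values were log2 intensities on 36227 probes. Array medians were 6.03 to 6.04 at 24 h and 6.35 to 6.36 at 48 h, so each time appears to have been scaled on its own, and levels set across the times carry that step. Among the arrays, 322 to 3997 probes had no value. DMA 24 h replicate 3 stood apart from the other 24 h arrays: its correlation with their median profile was 0.742, against 0.927 to 0.963 for the other 11 arrays with those of their own time. DMA 48 h replicate 3 carried a drift along the probe numbers, described below with the members it touched. Of 14 cardiomyocyte markers listed, 13 had a probe and 5 could be tested. The probes of 2 of them, Atp2a2 and Actc1, were empty throughout, Tnni3, Myl2, Pln and Mb had a value on 1 array each, Tnnt2 on 2 and Myl3 on 3. The labelled tissue could therefore be checked against these defining markers only in part.

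Of the 10 genes, 6 had at least 2 values in every group and were tested: Cpt1b, Cpt2, Acadm, Hadh, Acaa2 and Decr1. For none of these 6 did the difference between DMA and DMSO pass the test at either time. Hadha, Acadl, Acadvl and the brightest Hadhb probe could not be compared. At 24 h 5 of the 6 had a positive difference and Acadm a negative one, with a median of 0.77 on the log2 scale. At 48 h 5 had a negative difference and Decr1 a positive one, with a median of -0.37. Over all probes tested the medians were 0.09 and 0.01, and 19761 of 35401 differences were positive at 24 h and 18278 at 48 h. Without DMA 24 h replicate 3 and DMA 48 h replicate 3, the 2 arrays described above, all 6 differences were positive at both times, with medians of 0.73 and 0.38. This setting was chosen after seeing the data, and the share of all probes with a positive difference under it was not computed. It removed DMA arrays only, and DMA 48 h replicate 3 had the lowest value of its time in 5 of the 6 genes. The DMSO arrays of replicate 3 stayed in that fit, and they lay below the median of their time in 6 of 6 genes. At both times the differences between the replicate 1 arrays were mostly negative, and those between the replicate 2 arrays mostly positive. Cpt1b at 48 h differed by -1.23 between the replicate 1 arrays and 1.10 between the replicate 2 arrays, against 0.42 in that fit. Acadm at 24 h differed by -0.25 between the replicate 1 arrays, against 0.64. Without DMSO 24 h replicate 2, 4 of the 6 were positive at 24 h, with a median of 0.44. With limma, 0 of the 6 passed an adjusted p of 0.05 at either time, and 0% of all 35401 probes tested did so at 24 h and 0% at 48 h.

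At the looser unadjusted p of 0.05, 0 of the 6 genes passed at 24 h, where 3.03% of all probes did, and 0 of 6 at 48 h, where 1.4% did. The DMA and DMSO values of each of the 6 genes overlapped at both times. Over all probes the groups did not overlap for 7.99% at 24 h and 7.22% at 48 h. Arrays that carry the same replicate number can also be set against each other, as 3 pairs per time. Of the 4 genes with all 3 pairs at 24 h, 0 moved one way in all of them, against 22.8% of 29434 probes. At 48 h 0 of 6 did so, against 26.7% of 30095 probes.

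**Figure D1:**
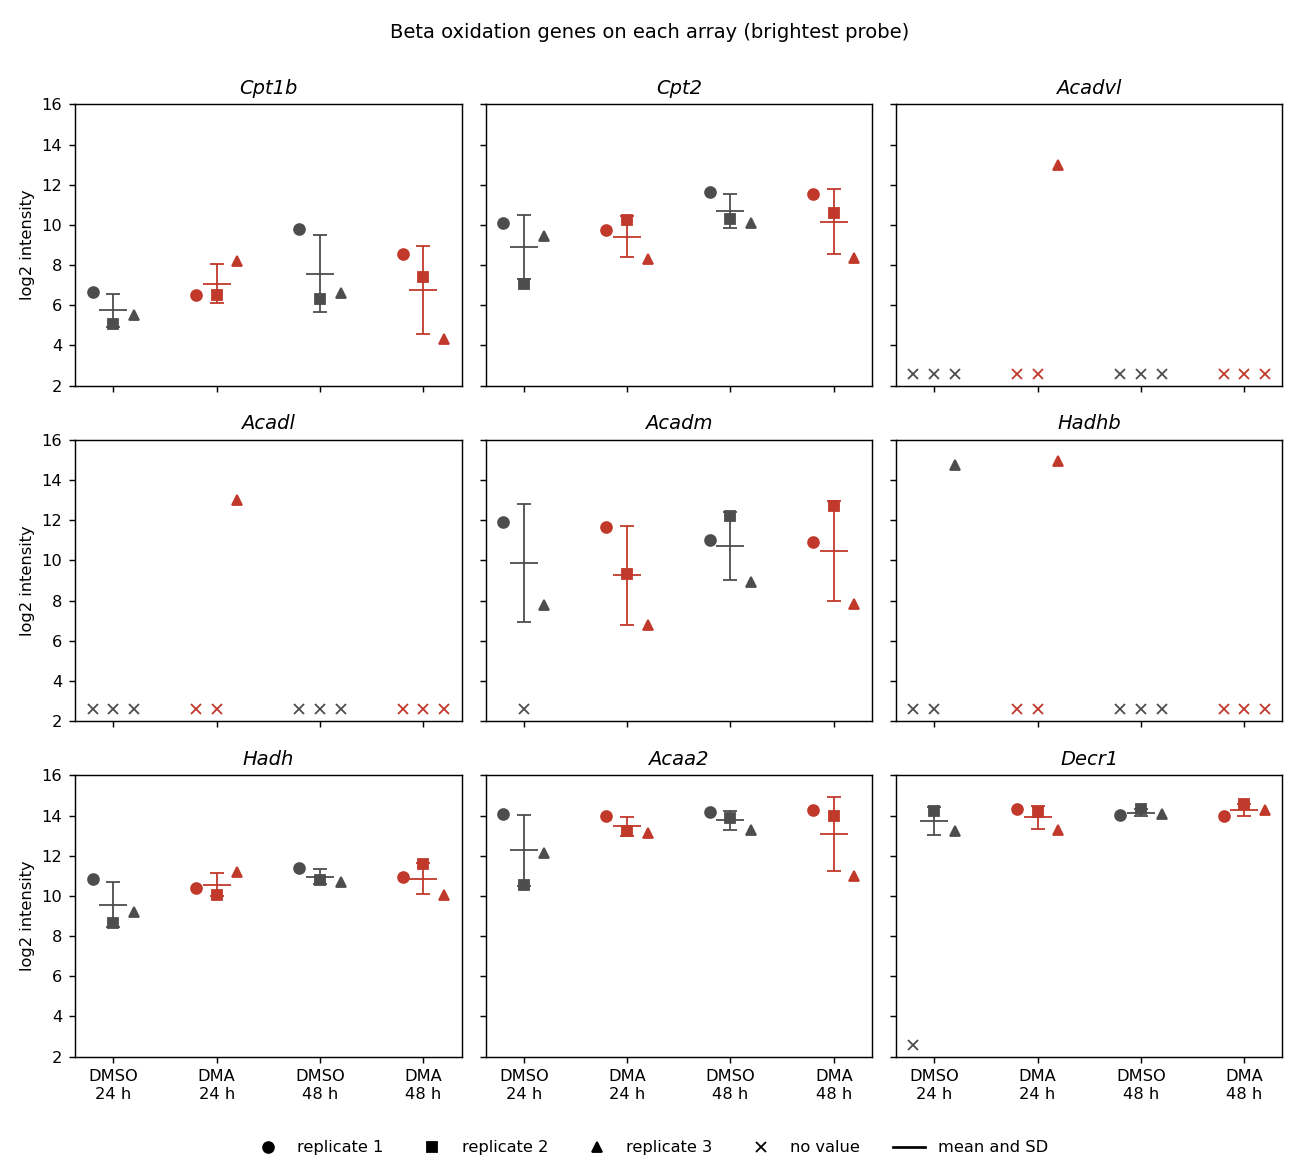
Log2 intensity (vertical axes) of the brightest probe of each of the 9 genes on every array, by group (horizontal axes), with the mean and SD of groups that have at least 2 values. Crosses at the bottom mark arrays without a value. Acadvl and Acadl have 1 value each, on DMA 24 h replicate 3, Hadhb has 2, and in the 6 other genes the DMA and DMSO points overlap at both times.

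The carnitine shuttle was the first step measured. Cpt1b, the entry enzyme of muscle mitochondria, read 6.64, 5.07 and 5.52 in the DMSO arrays at 24 h (replicates 1, 2 and 3) and 6.53, 6.52 and 8.19 in the DMA arrays. DMSO replicate 1 was above 2 of the 3 DMA arrays, so the groups overlapped. The means were 5.75 ± 0.811 (SD, n = 3) and 7.08 ± 0.965 (SD, n = 3). The DMSO mean lay below the medians of all probes on the 24 h arrays (6.03 to 6.04), and the DMA mean lay above them. The log2 difference of 1.33 (SE 1.13, 95% interval -1.14 to 3.80) was close to its own error, with an adjusted p of 0.871 in limma. Its pairs differed by -0.12, 1.45 and 2.67. Without DMA 24 h replicate 3, the array that stood apart, the difference was 0.78.

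At 48 h Cpt1b read 9.79, 6.31 and 6.61 with DMSO and 8.57, 7.41 and 4.33 with DMA. Replicate 1 was the highest array in both groups, and DMA replicate 3 was the lowest of the 6. DMA replicate 3 and DMSO replicate 2 read below the medians of their arrays (6.36 and 6.35). On the log2 scale DMA was -0.80 from DMSO (SE 1.13, 95% interval -3.27 to 1.67), with an adjusted p of 1 in limma. The pairs, at -1.23, 1.10 and -2.29, did not share a sign. Leaving out DMA 48 h replicate 3 turned the difference to 0.42, and leaving out DMSO 48 h replicate 1 turned it to 0.31.

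Cpt2, which reforms acyl-CoA on the matrix side, read 10.11, 7.08 and 9.45 with DMSO at 24 h and 9.76, 10.23 and 8.28 with DMA. DMSO replicate 2 was the lowest of these arrays by more than 1 log2 unit, and the other 5 were interleaved. The log2 difference of 0.55 (SE 0.946, 95% interval -1.53 to 2.62) had an adjusted p of 0.909 in limma. Without DMSO 24 h replicate 2 it was -0.35. The direction at 24 h therefore changed with 1 DMSO array.

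At 48 h Cpt2 read 11.65, 10.28 and 10.09 with DMSO and 11.54, 10.60 and 8.37 with DMA. The first 2 DMA arrays lay within the range of the DMSO arrays and replicate 3 lay below it. This gave a log2 difference of -0.50 (SE 0.946, 95% interval -2.58 to 1.57; adjusted p of 1 in limma). It was 0.40 without DMA 48 h replicate 3. The sign of the mean difference at 48 h was thus that of this 1 array.

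The first dehydrogenation step was read mainly from Acadm, the medium-chain enzyme, since the probes of Acadvl and Acadl were nearly empty. Acadvl had a single value, 12.99, and Acadl a single value, 13.01, both on DMA 24 h replicate 3. Neither gene could be compared between DMA and DMSO. Missing values are described further below.

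Acadm read 11.93, no value and 7.78 with DMSO at 24 h, and 11.68, 9.31 and 6.77 with DMA. Within each group replicate 1 was high and replicate 3 was low, and the groups overlapped almost fully. Their log2 difference was -0.60 (SE 1.8, 95% interval -4.59 to 3.39; adjusted p of 0.947 in limma), with n = 2 for DMSO and n = 3 for DMA. The pairs with both values differed by -0.25 and -1.01. Leaving out DMA 24 h replicate 3 gave 0.64, and leaving out DMSO 24 h replicate 1 gave 1.47.

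At 48 h Acadm read 11.04, 12.22 and 8.91 with DMSO and 10.93, 12.70 and 7.81 with DMA. The order of the replicates was the same in both groups: replicate 2 was highest and replicate 3 lowest. The log2 difference was -0.25 (SE 1.61, 95% interval -3.81 to 3.32; adjusted p of 1 in limma). The pairs differed by -0.11, 0.48 and -1.10, which is small beside the range of 4.10 between the means of the pairs. With the replicate number as a block in limma the SE fell to 0.418 at 48 h and 0.512 at 24 h, and the intervals became -1.28 to 0.78 and -1.89 to 0.63, both of which still included 0. The difference was 1.09 without DMA 48 h replicate 3 and 0.50 when the DMSO array of replicate 2 was left out.

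Hadhb, the thiolase subunit of the trifunctional protein, was covered by 2 probes. The brightest, for NM_145558, had a value on DMSO 24 h replicate 3 (14.73) and on DMA 24 h replicate 3 (14.96) and on no other array. The dimmer one, for the expressed sequence AI466823, read 4.27, 5.11 and 3.70 with DMSO at 24 h and 5.0, 5.47 and 5.78 with DMA. All 12 arrays had medians of 6.03 to 6.36, above every value of the dimmer probe at either time (3.70 to 5.78). The 3 pairs of the dimmer probe were positive at 24 h, at 0.73, 0.36 and 2.08, although DMSO replicate 2 was above DMA replicate 1. Of all probes with 3 pairs at 24 h, 22.8% had them of one sign. The log2 difference was 1.06 (SE 0.445, 95% interval 0.07 to 2.04). Its unadjusted p was 0.0384 and its adjusted p 0.871 in limma, so it did not pass.

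At 48 h the dimmer Hadhb probe read 5.24, no value and 5.39 with DMSO and 5.32, 4.85 and 4.32 with DMA. The groups overlapped, and the log2 difference was -0.48 (SE 0.497, 95% interval -1.59 to 0.62; adjusted p of 1 in limma). The change of its DMA effect from 24 h to 48 h was -1.54 (SE 0.667), with an unadjusted p of 0.0433 and an adjusted p of 0.999 in limma. In pair 3 at 24 h, the single pair that both probes measured, the differences were 0.23 for the brightest and 2.08 for the dimmer probe, both positive. No value of the dimmer probe is counted among the 6 genes, since the brightest probe stands for the gene.

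Hadh, the dehydrogenase that acts on short and medium chains, read 10.84, 8.67 and 9.19 with DMSO at 24 h and 10.40, 10.07 and 11.20 with DMA. DMSO replicate 1 lay among the DMA arrays and the other 2 DMSO arrays lay below all of them. The log2 difference of 0.99 (SE 0.592, 95% interval -0.31 to 2.29) had an unadjusted p of 0.122, the lowest of the 6 genes at 24 h, and an adjusted p of 0.871 in limma. The pairs differed by -0.44, 1.40 and 2.01. Leaving out 1 array at a time gave 0.54 to 1.62, lowest without DMSO 24 h replicate 2 and highest without DMSO 24 h replicate 1.

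At 48 h Hadh read 11.39, 10.77 and 10.70 with DMSO and 10.94, 11.59 and 10.06 with DMA. The DMA arrays held both the highest and the lowest value. Fitted with limma, the log2 difference was -0.09 (SE 0.592, 95% interval -1.39 to 1.21; adjusted p of 1 in limma). It turned to 0.31 when DMA 48 h replicate 3 was left out, and to 0.13 when the DMSO array of replicate 1 was.

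Acaa2, the thiolase that releases acetyl-CoA, read 14.10, 10.57 and 12.16 with DMSO at 24 h and 14, 13.25 and 13.15 with DMA. The DMA arrays were close together, while the DMSO arrays spanned more than 3 log2 units and included the highest value. The log2 difference was 1.19 (SE 0.944, 95% interval -0.88 to 3.26; adjusted p of 0.871 in limma), with pairs at -0.10, 2.68 and 0.99. It was 0.34 without DMSO 24 h replicate 2 and 2.10 when DMSO 24 h replicate 1 was left out instead.

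At 48 h Acaa2 read 14.18, 13.90 and 13.26 with DMSO and 14.28, 13.99 and 10.97 with DMA. The first 2 pairs differed by 0.09 and 0.10 and the third by -2.30. The log2 difference was -0.70 (SE 0.944, 95% interval -2.77 to 1.37; adjusted p of 1 in limma). It was 0.36 without DMA 48 h replicate 3.

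Decr1, the reductase for unsaturated fatty acids, had the smallest spread of the 6 genes. Its values, 13.25 to 14.59, lay near the highest values of the arrays (14.53 to 15.12). The part of that upper end in its small spread was not tested. At 24 h it read no value, 14.23 and 13.25 with DMSO and 14.32, 14.19 and 13.27 with DMA. At 48 h it read 14.03, 14.33 and 14.07 with DMSO and 13.96, 14.59 and 14.28 with DMA. The same-numbered arrays lay within 0.26 log2 units of each other in each of the 5 pairs with both values. Its log2 difference was 0.19 at 24 h (SE 0.459, 95% interval -0.83 to 1.21; adjusted p of 0.936 in limma, n = 2 for DMSO). It was 0.13 at 48 h (SE 0.41, 95% interval -0.78 to 1.04; adjusted p of 1 in limma). Without DMSO 24 h replicate 3 the 24 h difference was -0.30.

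**Figure D2:**
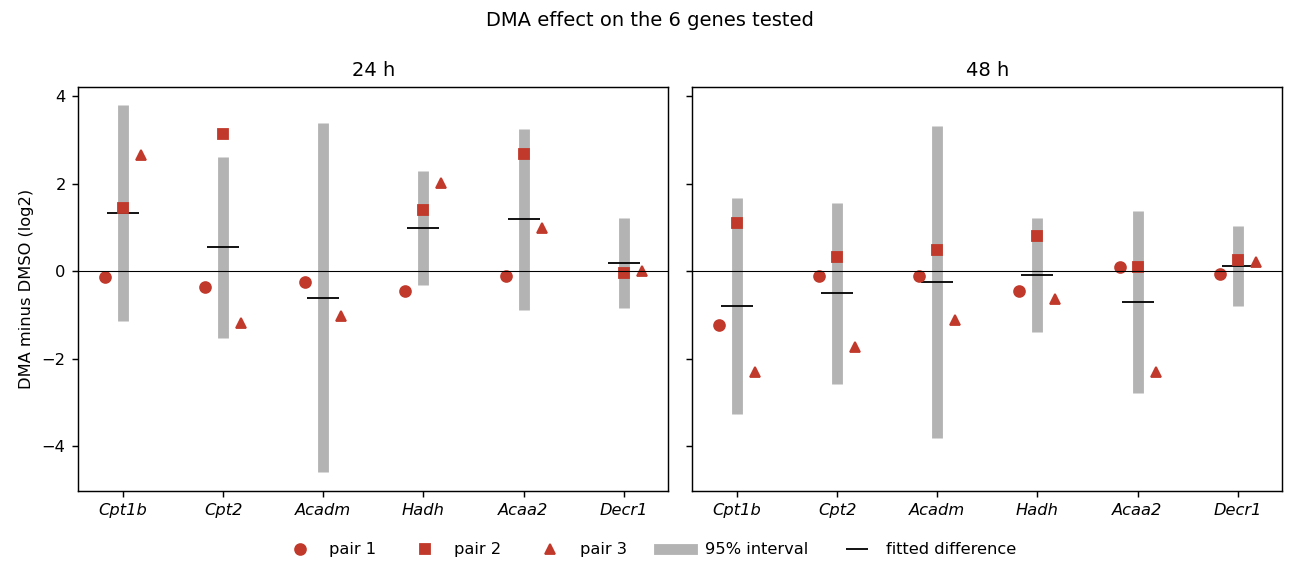
DMA minus DMSO on the log2 scale (vertical axes) for the 6 genes tested, at 24 h and at 48 h, as the differences of the 3 same-numbered pairs (symbols), the difference fitted with limma (black line) and its 95% interval (grey bar). Every interval includes 0, and in no gene with 3 pairs do all 3 lie on one side of 0.

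The DMA effect at 48 h was then set against that at 24 h in the same fit. There a constant log2 step between the times cancels, while any other difference in their scaling would not. The difference of effects was negative for 5 of the 6 genes and positive for Acadm, with a median of -1.06, against -0.05 over all probes, of which 18653 were negative. Cpt1b had -2.14 (SE 1.59) and Acaa2 had -1.89 (SE 1.34). Hadh had -1.08 (SE 0.837) and Cpt2 had -1.05 (SE 1.34). Decr1, at -0.05 (SE 0.616), and Acadm, at 0.36 (SE 2.41), were near 0 relative to their errors. In limma 0 of the 6 passed an adjusted p of 0.05 and 0% of all probes did, and at an unadjusted p of 0.05 the shares were 0 of 6 and 1.96%. Without both arrays that stood apart, 5 of the 6 stayed negative, with a median of -0.37. No difference between the times was therefore detectable for these genes with 3 arrays a group.

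The spread between arrays of one group differed widely among the genes. The pooled SD within groups was 2.35 for Acadm, 1.59 for Cpt1b, 1.32 for Acaa2, 1.32 for Cpt2, 0.766 for Hadh and 0.444 for Decr1, with a median of 0.681 over all probes tested. Acadm varied more than 99.7% of the probes and Cpt1b more than 94.9%, while Decr1 varied more than 21.5%. The range over all 12 arrays was 5.92 for Acadm and 5.46 for Cpt1b, and 1.34 for Decr1, against a median range of 2.40. The 4 genes with the widest spread are the carnitine shuttle enzymes, the medium-chain dehydrogenase and the thiolase. They are also the 4 whose probes lie where DMA 48 h replicate 3 drifted, as described below, and the SD includes that array. The part of the drift in their spread was not tested.

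Some arrays were high or low in most of these genes at once. DMA 48 h replicate 3 had the lowest 48 h value in 5 of the 6 genes, with Decr1 as the exception, and DMSO 48 h replicate 3 lay below the median of its time in 6 of 6. DMA 48 h replicate 2 lay above it in 6 of 6. At 24 h DMSO replicate 2 was lowest in 4 of the 5 genes with a value there, DMSO replicate 3 was below the median in 6 of 6, and DMA replicate 1 was above it in 6 of 6. DMSO replicate 1 was above it in 5 of 5, and DMA replicate 3 was below it in 4 of 6 and highest of its time in the other 2.

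On DMA 48 h replicate 3 the values over all probes drifted with the position of the probe in the numbering of the array. Each 48 h array was first set against the median of the other 5 arrays of that time. The 2520 highest-numbered probes with a value on DMA 48 h replicate 3 had a median deviation of -1.02 log2 units. On the other 5 arrays of that time it was 0.00 to 0.20. The probes of Cpt1b, Cpt2, Acadm and Acaa2 lie in that stretch. Their own deviations on DMA 48 h replicate 3, here from the median of all 48 h arrays, were -2.69, -2.08, -3.18 and -2.98. The running median around them, on this same measure, was -0.78, -0.79, -0.83 and -0.96. Hadh and Decr1 lie elsewhere, where the running median was 0.26 and 0.14, and deviated by -0.80 and 0.11. Hadh was thus low on this array where the running median was not. With the running median subtracted from every array, the 48 h differences were -0.53 for Cpt1b, -0.22 for Cpt2, 0.04 for Acadm, -0.36 for Acaa2, -0.29 for Hadh and 0.08 for Decr1. The part of this drift in the levels of these genes beyond that subtraction was not tested.

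**Figure D3:**
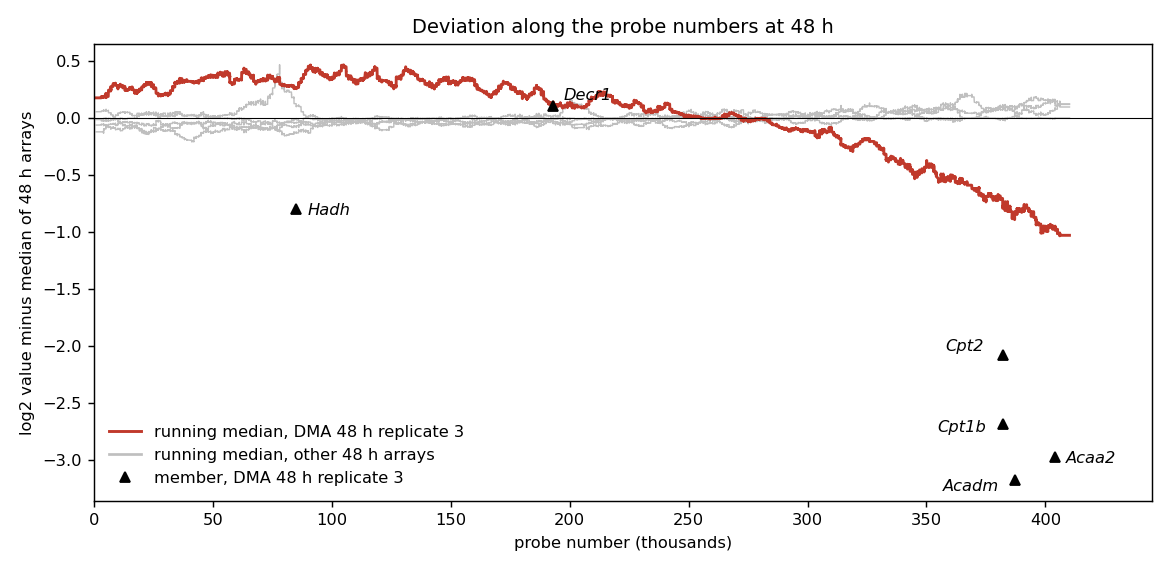
Running median over neighbouring probes of the log2 value minus the median of the 48 h arrays (vertical axis), along the probe number (horizontal axis, scale in the axis label), for DMA 48 h replicate 3 (red) and the other 5 arrays of 48 h (grey). Triangles give the 6 genes on DMA 48 h replicate 3: Cpt1b, Cpt2, Acadm and Acaa2 lie at the high numbers, where the red line is lowest, and all 4 lie below it.

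Missing values fell on the members unevenly. Of 108 possible values of the 9 genes, 34 were missing. Acadl and Acadvl lacked 11 values each and Hadhb 10, while Acadm and Decr1 lacked 1 each, both on a DMSO array of 24 h. Hadh, Acaa2, Cpt2 and Cpt1b had all 12. Each 48 h array lacked 3 genes, the same in DMA as in DMSO. At 24 h the DMSO arrays lacked 4, 4 and 2 genes and the DMA arrays 3, 3 and 0, and DMA replicate 3 was the single array with all 9.

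Probes with a high signal lost more values than others. Probes whose highest log2 value lay above 14 had no value on 1.84 arrays on average (634 probes), against 0.63 for those between 13 and 14 and 0.33 to 0.42 for lower ones. Of the probes above 14, 7.89% were empty on at least 10 arrays, as the brightest Hadhb probe was. The share was 2.66% between 13 and 14, where the single value of Acadl lay, and 0.379% between 12 and 13, where that of Acadvl lay. Of 54 probes with a value on 1 array only, 53 had it on DMA 24 h replicate 3, with a median of 13.25, and Acadl and Acadvl were 2 of them. The values of Acadl and Acadvl thus come only from the array that stood apart. What emptied the other cells of these genes was not tested.

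The other genes of fatty acid oxidation were examined as 6 lists of 69 genes, of which 58 had a probe and 51 were tested. In limma 0 of the 51 passed an adjusted p of 0.05 at either time, and an unadjusted p under 0.05 was reached by 1 gene at 24 h (1.96%) and 0 at 48 h. Over all 17611 genes tested the shares were 2.82% and 1.02%, so the count at 24 h was near the background. That gene was Sirt3, the mitochondrial deacetylase that acts on enzymes of this pathway. It read no value, 5.72 and 6.49 with DMSO at 24 h and 7.40, 7.86 and 8.59 with DMA, so the values present did not overlap. The missing value was that of DMSO replicate 1. That array lay above the 24 h median in 5 of the 5 tested beta oxidation genes it measured. Ppara, Cpt1a, Decr2, Fabp5, Eci2 and Etfb, named below, also had no value on it. Their comparisons at 24 h rest on the 2 other DMSO arrays. For Sirt3 the log2 difference was 1.85 (SE 0.568), with an unadjusted p of 0.00835 and an adjusted p of 0.871 in limma. At 48 h Sirt3 read 9.15, 7.98 and 8.59 with DMSO and 8.35, 8.64 and 7.27 with DMA, with a log2 difference of -0.49 (SE 0.508; adjusted p of 1 in limma) that was -0.08 without DMA 48 h replicate 3.

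Among the regulators, 14 were tested, of which 7 were positive at 24 h and 8 at 48 h, with medians of 0.04 and 0.02. Ppara, the receptor that drives much of this pathway, read no value, 5.65 and 6.31 with DMSO at 24 h and 7.51, 6.09 and 8.44 with DMA. The groups overlapped through DMA replicate 2, and the log2 difference was 1.37 (SE 0.72; adjusted p of 0.871 in limma), or 0.82 without DMA 24 h replicate 3. Esrra, the estrogen-related receptor alpha, had 0.59 (SE 0.364). At 48 h Rxra, the partner receptor of Ppara, had 0.56 (SE 0.498) and Acacb, which makes the malonyl-CoA that inhibits Cpt1, had 0.25 (SE 0.367). None of these passed in limma.

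Activation of fatty acids and the carnitine shuttle gave 11 tested genes, with 5 positive at 24 h and 3 at 48 h and a median of -0.11 at each time. Cpt1a, the liver form of the entry enzyme, had 0.88 (SE 0.539) at 24 h, where its DMSO arrays read 5.66 and 5.59 and its DMA arrays 6.34, 6.44 and 6.73. The groups of Cpt1a did not overlap, with 1 DMSO value missing, and its adjusted p was 0.871 in limma. The acyl-CoA synthetase Acsl3 had -0.96 (SE 0.686) and the thioesterase Acot13 -1.42 (SE 1.13) at 24 h. At 48 h Slc25a20, the carnitine carrier of the inner membrane, had -1.27 (SE 1.13), Acsl4, another acyl-CoA synthetase, had -0.32 (SE 0.334), and Cpt1c, the brain form, had 0.25 (SE 0.301). Acsl3 and Acot13 were low on DMA 24 h replicate 3 alone among the DMA arrays, and without it they had 0.04 and 0.31. Slc25a20 had 0.28 without DMA 48 h replicate 3.

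The other mitochondrial enzymes and electron carriers had 9 tested genes, with 5 positive at 24 h and 3 at 48 h and medians of 0.13 and -0.11. At 24 h the enoyl-CoA isomerase Eci2 had -2.01 (SE 1.24), the acyl-CoA dehydrogenase Acad11 -0.82 (SE 0.638) and the electron carrier subunit Etfb -2.13 (SE 1.76). All 3 were low on DMA 24 h replicate 3 alone among the DMA arrays, and without it the differences were -0.32, 0.12 and 0.34. At 48 h Etfdh, which passes the electrons to ubiquinone, had -0.44 (SE 0.767), the short-chain dehydrogenase Acads -0.44 (SE 0.843) and Acad9 0.20 (SE 0.393). Without DMA 48 h replicate 3, Etfdh had 0.13 and Acads 0.46. None of these passed in limma. Etfa had a value on 2 arrays, Ech1 on 6 and Eci1 on 8, so these were not tested.

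Peroxisomal oxidation had 11 tested genes, with 5 positive at 24 h and 6 at 48 h and medians of -0.07 and 0.10. At 24 h the racemase Amacr had -2.13 (SE 1.23), Decr2, the peroxisomal counterpart of Decr1, had 0.88 (SE 0.72), and the thiolase and carrier Scp2 had -1.51 (SE 1.33). Amacr and Scp2 were low on DMA 24 h replicate 3 alone among the DMA arrays, and without it they had -0.49 and 0.56. At 48 h the peroxisomal transporters Abcd2 and Abcd3 had -0.90 (SE 0.906) and 0.38 (SE 0.456), and Decr2 had -0.41 (SE 0.644), which was -0.06 without DMA 48 h replicate 3. Uptake and binding had 4 tested genes, all with a positive difference at 24 h and 1 at 48 h, with medians of 0.35 and -0.20. The fatty acid transporter Slc27a1 had 1.19 (SE 0.761) at 24 h and -0.40 (SE 0.761) at 48 h, the binding protein Fabp5 0.58 (SE 0.413) and -0.27 (SE 0.37), and Gpihbp1, which anchors lipoprotein lipase, 0.09 (SE 0.401) and -0.12 (SE 0.401). Slc27a1 had 0.19 at 48 h without DMA 48 h replicate 3. None of these passed in limma.

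Lpl and Fabp3 had a value on 1 array, Fabp4 on 2 and Slc27a4 on 10, and they were not tested. Ketone body use was read from 2 genes, both with a negative difference at both times and medians of -0.41 and -0.39. Oxct1, which activates ketone bodies, had -0.58 (SE 2.06) at 24 h and -0.47 (SE 2.25) at 48 h, and the dehydrogenase Bdh1 had -0.24 (SE 1.12) and -0.32 (SE 1.12). Without DMA 24 h replicate 3, Oxct1 had 1.67 and Bdh1 0.92 at 24 h, and without DMA 48 h replicate 3 they had -0.04 and 0.23 at 48 h. Neither passed in limma. Over the 51 genes tested, the groups did not overlap for 5 at 24 h (9.8%) and 2 at 48 h (3.92%), each with n = 2 for DMSO, against 7.99% and 7.22% of all probes. Of the 34 list results named at the 2 times, 15 turned sign when 1 array was left out.

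**Figure D4:**
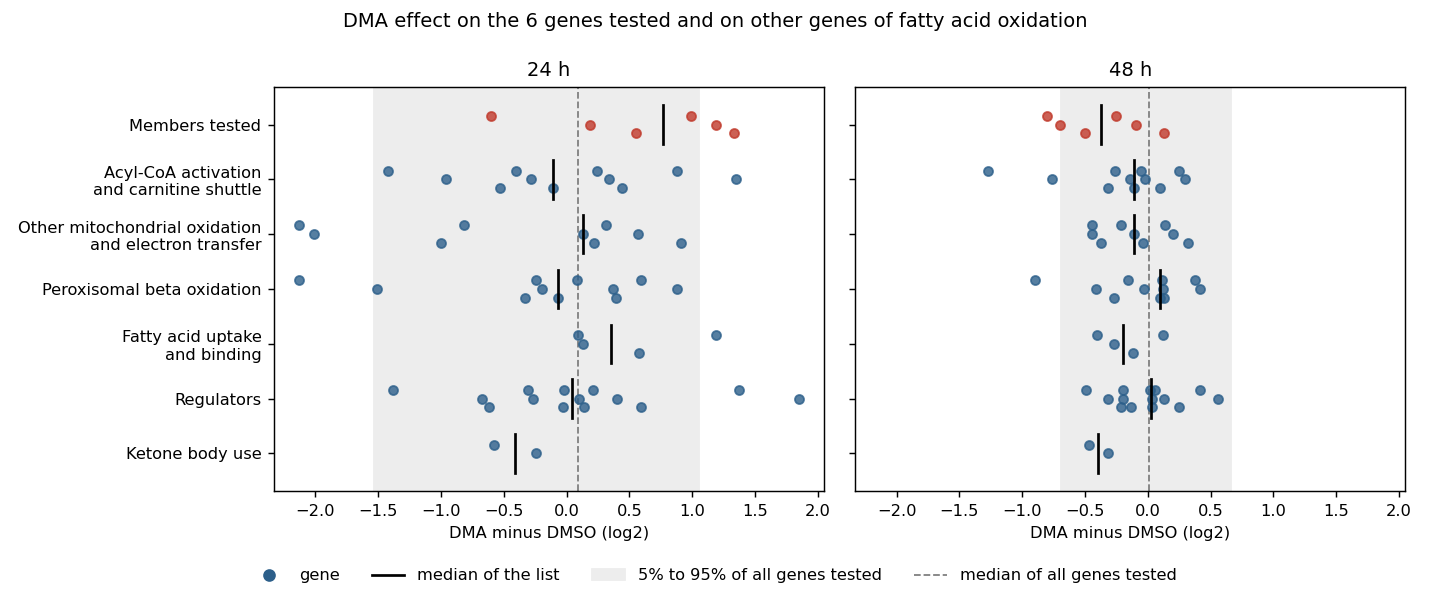
DMA minus DMSO on the log2 scale (horizontal axes) at 24 h and at 48 h for the 6 beta oxidation genes tested (red, top row) and the 6 lists of related genes (blue), with the median of each list (black line) and, in grey, the range from 5% to 95% of the 17611 genes tested (-1.53 to 1.05 at 24 h, -0.69 to 0.66 at 48 h). The 6 genes have a median of 0.77 at 24 h and -0.37 at 48 h, and the medians of the other lists lie between -0.41 and 0.35 at 24 h and between -0.39 and 0.10 at 48 h.

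Markers of the cell types that a heart sample can hold are given beside these values. At 24 h the median difference was 0.42 for the 5 cardiomyocyte markers tested, 0.34 for 9 endothelial and 0.43 for 5 macrophage markers. It was 0.48 for 5 smooth muscle and pericyte markers and 0.69 for 2 brown fat markers. For 7 fibroblast markers it was -0.08, for 3 white fat markers -0.19, for 3 lung markers -0.07 and for 3 skeletal muscle markers -0.80. At 48 h the endothelial markers had a negative difference in 9 of 9, with a median of -0.53, against 8563 of 17611 genes tested. The endothelial probes of Pecam1, Flt1 and Emcn lie at numbers where DMA 48 h replicate 3 had a median deviation of -0.48. The other endothelial probes lie at lower numbers, and the macrophage probes of C1qa, C1qb, Cx3cr1 and Lyz2 at higher ones. The part of that drift in these marker values was not tested. The cardiomyocyte median at 48 h was -0.03. The other 48 h medians were -0.07 for fibroblast, -0.18 for smooth muscle and pericyte, -0.31 for macrophage, 0.09 for white fat, 0.15 for brown fat, -0.29 for lung and -0.15 for skeletal muscle. In limma 0 markers passed an adjusted p of 0.05. At an unadjusted p of 0.05 in limma, 1 of the 3 white fat markers passed at 24 h, against 2.82% of all genes tested. In tissue RNA, fewer cells of a type and less RNA per cell cannot be told apart, and the part of cell composition in the values of the beta oxidation genes was not tested.

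The genes most like the members were sought over the 12 arrays, as the Pearson correlation of each gene's deviations from its group means with the mean profile of the 4 members that have 12 values (Hadh, Acaa2, Cpt2 and Cpt1b). That profile was lowest on DMA 48 h replicate 3 (-1.79) and DMSO 24 h replicate 2 (-1.27), and highest on DMSO 24 h replicate 1 (1.31). The 4 members had r of 0.824 to 0.942 with it, each being part of it. The closest other genes of 12357 were Lrrc2 (0.993), Mrc1 (0.991), Ywhaz (0.99), Tmed4 (0.99) and Slc25a11 (0.989), of which Slc25a11 is a carrier of the inner mitochondrial membrane and Mrc1 a macrophage receptor. In all 383 genes (3.1%) reached 0.824 or more, with a median r of 0.00 over all genes. These correlations describe spread within groups on shared arrays, which differ in the ways given above, and carry no test.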

How the data were processed

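The authors deposited log2 values for 36227 probes on 12 arrays. The background correction, the normalization and the rule for empty cells are not given in the sources used here. The platform annotation gave 1 symbol to 21615 probes, several to 681 (not used) and none to 13931. All 9 members with a probe were matched by gene ID to RefSeq. The members and gene lists were chosen with earlier results of these data known.

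Probes with at least 2 values in each group (35401; 826 left out) entered a limma fit (version 3.58.1, R 4.3.3) of all 12 arrays with 1 term per group. P-values were adjusted over all of these probes (Benjamini-Hochberg), and 0.05 was the threshold. Missing values were left out, never filled. The fit was tested on simulated normal noise, drawn independently for each array. That noise held no drift, no array that stood apart and no link between same-numbered arrays. The simulation therefore does not cover these features of the data. Named genes were all members, the 3 genes per list and time with the smallest unadjusted p, and the 5 genes most like the members. Same-numbered DMSO and DMA arrays deviated together over 25002 probes (r = 0.186, 0.11 and 0.117 at 24 h, and 0.329, 0.304 and 0.266 at 48 h). On that basis pair differences were described and a replicate block was fitted as an alternative. The main fit, which gave the SE, intervals and p-values unless stated, held no term for pairs. The pairing comes from the data, not the labels. The number of arrays limits the precision. Alternatives covered the block, filters, weights, normalization and arrays left out; leaving out both arrays that stand apart was chosen after seeing the data. Figures used Python 3.11.15 and matplotlib 3.10.9.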

Additional observations from a re-analysis of the deposited data

How the results depend on the processing

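The counts of probes called by limma, 0 for each of the 3 comparisons, stayed at 0 except when arrays were left out. Leaving out 1 array gave 0 to 14 probes at 24 h (9 when replicate 1 of DMA at 24 h was left out, 14 when replicate 2 was), 0 to 1 at 48 h and 0 to 4 for the difference of the times. Without both arrays that stand apart, an alternative chosen after seeing the data, 3 probes were called at 48 h (Usp42, Tmem108 and Polr3k). No beta oxidation gene was among any of these calls, and 0 of the 188 member results under other settings and 0 of the 252 with 1 array left out passed. The share of all probes at an unadjusted p under 0.05 was 3.03% at 24 h, 1.4% at 48 h and 1.96% for the difference of the times. It was 4.82%, 2.13% and 3.29% with the replicate block, 6.06%, 2.94% and 4.24% with array weights, and 2.27%, 0.0284% and 0.693% among probes above the median level. With the 6 arrays of one time alone it was 1.42% at 24 h and 2.2% at 48 h. Leaving out 1 array gave 2.16% to 8.55%, 1.28% to 2.24% and 1.61% to 3.13%. Signs turned in 14 of the 188 and 23 of the 252. Many of these results could not turn. Leaving out an array of one time left the differences within the other time as they were. Filters on probes and fits of one time alone also kept each difference unchanged. The 2 totals, which include the dimmer Hadhb probe, therefore do not measure how stable the signs were.

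With the replicate number as a block (replicate block), Decr1 was -0.01 at 24 h and 0.14 for the difference of the times, and no call changed. With array weights Hadh was 0.21 at 48 h, and Acadm was 1.46 at 24 h, 0.64 at 48 h and -0.81 for the difference of the times. Quantile normalization gave Decr1 -0.09 at 48 h, and subtracting the running median gave Acadm 0.04 at 48 h. Without both arrays that stand apart, Acadm was 0.64 at 24 h and, at 48 h, Hadh was 0.31, Acadm 1.09, Acaa2 0.36, Cpt2 0.40 and Cpt1b 0.42. With 1 array left out, the differences whose sign turned ranged at 24 h from -2.68 to 1.47 for Acadm, -0.35 to 1.16 for Cpt2 and -0.30 to 0.67 for Decr1. At 48 h they ranged from -0.45 to 0.31 for Hadh, -1.36 to 1.09 for Acadm, -1.30 to 0.36 for Acaa2, -1.19 to 0.40 for Cpt2, -1.70 to 0.42 for Cpt1b and -0.02 to 0.29 for Decr1, and for the difference of the times from -1.72 to 2.43 for Acadm and -0.54 to 0.43 for Decr1. The cause of these turns was not tested.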
